A study of Mus musculus with 2 samples.

Results

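The 10 imprinted genes described here were followed in cultured mouse spermatogonia and in the feeder cells captured with them. The genes were H19, Igf2, Igf2r, Peg3, Meg3, Mest, Snrpn, Grb10, Plagl1 and Cdkn1c. They were found by symbol, and all 10 were among the 26893 genes named in both libraries. A cell counted as a germ cell when it held at least 3 UMIs (unique molecular identifiers, 1 per captured transcript) of Dazl plus Ddx4, RNA-binding genes of germ cells, and at least 5 times its UMIs of Col1a1 plus Fn1, matrix genes of fibroblasts. Feeder cells met the same rule the other way round. The Chd4 siRNA library held 723 germ and 85 feeder cells among 858 cells kept, and the control siRNA library held 695 germ and 76 feeder cells among 816. Another 50 cells of the Chd4 siRNA library and 45 of the control library met neither rule and were left out.

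Both libraries came from undifferentiated spermatogonia of adult C57BL/6 mice, enriched by magnetic selection for THY1 and kept without serum, with GDNF and bFGF, on a feeder layer of SNL76/7 fibroblasts, a mouse embryonic line that had been treated with mitomycin. For the treatment, spermatogonia lifted off this layer were exposed on plastic for 24 h to 2 µL Lipofectamine with 75 pmol of siRNA, either against Chd4, which encodes the motor subunit of the chromatin complex NuRD, or non-targeting. Equal numbers of cells from 3 biological replicates were mixed per siRNA before capture with 10x Genomics v2 chemistry. Each siRNA is therefore 1 library, no difference below has a replicate check, no p-value was computed, and every 95% interval covers counting error only. The feeder cells are the few captured cells that met the fibroblast rule, and they met the siRNA with the germ cells. They are taken as fibroblasts of the feeder layer lifted along with the germ cells, but no count here identifies the cell line. Fewer cells of a kind and less RNA per cell cannot be told apart in a sum over a class.

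An imprinted gene is transcribed mainly from the copy inherited from one parent, because that copy and its partner carry different DNA methylation at a control region. Male germ cells erase the marks of both parents before birth and then set a paternal pattern on both copies, in which the control regions beside H19 and Meg3 are methylated and most others are not. Many imprinted genes act on growth: Igf2 encodes a growth factor, Igf2r the receptor that clears it, Grb10 an adaptor that restrains insulin and IGF receptors, and Cdkn1c an inhibitor of cyclin-dependent kinases. The counts here hold no parental alleles, so a level says how much RNA was captured and not from which copy. Below, maternally or paternally expressed names only the copy a gene is listed under. The copy in use in these cells was not measured.

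The classes carried the markers of their labels. Germ cells had 2475 CPM (UMIs of a gene over all UMIs of the class, scaled in the usual way) of 19 further germ markers in the Chd4 siRNA library and 2307 CPM in the control library, against 65.2 and 80.3 CPM in feeder cells of the Chd4 siRNA and control libraries. For 21 further fibroblast markers, germ cells had 78.8 CPM in the Chd4 siRNA library and 67.6 CPM in the control library, against 3820 and 3521 CPM in feeder cells of the Chd4 siRNA and control libraries. Markers of Leydig cells, macrophages, peritubular myoid cells and blood summed to at most 15.3 CPM in any class, with Cyp11a1, Insl3, Adgre1, C1qa, C1qb, Tyrobp and Cnn1 at 0 UMIs. The macrophage sum was mostly Cd68, with 179 UMIs in Chd4 siRNA and 156 in control germ cells. Endothelial markers reached 63.1 CPM in germ cells, mostly Egfl7, and Sertoli markers 287 CPM in feeder cells, mostly Sox9. Of the other Sertoli markers in feeder cells, Rhox5 had 193 UMIs with Chd4 siRNA and 79 with control siRNA, and Clu had 68 and 27. Inha had 13 and 12, Gata4 9 and 15, and Amh 1 and 4, while Wt1 and Cldn11 had at most 1. Chd4 stood at 256 CPM in Chd4 siRNA germ cells and 535 CPM in control germ cells, and at 51.7 CPM in Chd4 siRNA feeder cells and 153 CPM in control feeder cells. Germ cells held 11796733 UMIs in the Chd4 siRNA library and 11209050 in the control library, with medians of 15663 and 15327 per cell. Feeder cells held 3560667 UMIs in the Chd4 siRNA library and 3126177 in the control library, with medians of 42195 and 39300 per cell. Among the barcodes read, 1 was shared by both libraries.

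The 10 genes split by cell class. H19, Cdkn1c, Meg3 and Snrpn were at least 4-fold higher in germ cells of both libraries, where feeder cells held 23 UMIs of them or fewer. Igf2r, Peg3 and Grb10 were at least 4-fold lower in germ cells of both libraries. Igf2, Plagl1 and Mest did not pass 4-fold in both. Among 12181 genes with at least 20 UMIs in each library, 15.0% passed 4-fold upward and 10.8% downward (25.8% in either direction), against 4 and 3 of the 10 imprinted genes. The median log2 ratio of germ over feeder cells was 1.34 in the Chd4 siRNA library and 1.29 in the control library for the 10 genes, against 0.50 and 0.41 for all genes tested. The median of the 10 genes falls midway between the ratios of Igf2 and Plagl1 in both libraries, so it marks no shift common to the 10. Other scalings (TMM and DESeq2 size factors) lowered every such ratio by 0.23 and 0.29 in the Chd4 siRNA library and by 0.16 and 0.22 in the control library, with 7 genes past 4-fold under both.

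**Figure D1:**
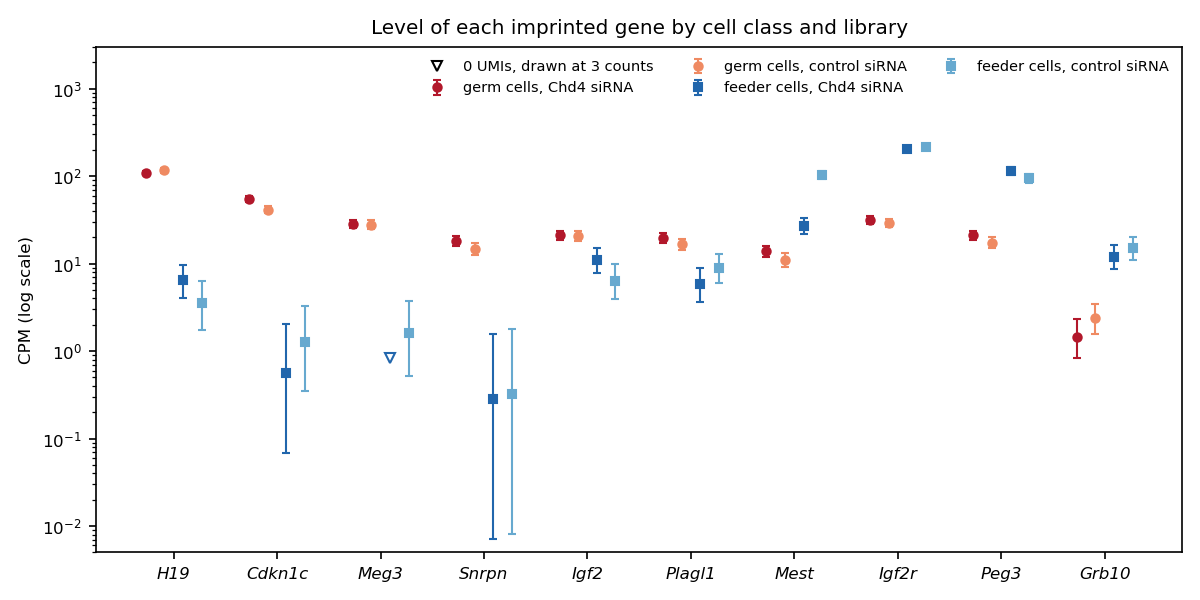
Level of each imprinted gene in CPM on a log axis, in germ cells (circles) and feeder cells (squares) of the Chd4 siRNA and control siRNA libraries, with exact Poisson 95% intervals; a triangle marks 0 UMIs, drawn at 3 counts. H19, Cdkn1c, Meg3 and Snrpn lie higher in germ cells, and Igf2r, Peg3 and Grb10 lie lower there.

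H19, a maternally expressed long noncoding RNA (ENSMUSG00000000031, chr7:142575529-142578143, minus strand), had 109.9 CPM (104 to 116) in Chd4 siRNA germ cells and 116 CPM (110.0 to 123) in control germ cells, against 6.46 and 3.52 CPM in the feeder cells of those libraries. Both germ cell levels lay far above both feeder levels, by 17.0-fold and 33.0-fold, log2 4.09 (3.50 to 4.75) and 5.05 (4.20 to 6.05). An exon of H19 is also the precursor of miR-675. Small RNAs were not captured by this assay, but the mature forms that the transcript can give are shown because H19 was the most widely detected of the 10 genes in germ cells. Capitals mark the seed, bases 2 to 8, in the sequences of RefSeq on GRCm38.p6 (chr7:142577112-142577133 and chr7:142577078-142577099, minus strand).
miR-675-5p: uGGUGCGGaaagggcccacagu
miR-675-3p: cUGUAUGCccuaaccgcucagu

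After every cell was thinned to 9000 UMIs, so that the deeper feeder cells gained no advantage, an H19 UMI was found in 46.7% (42.8 to 50.5) of Chd4 siRNA germ cells and 54.5% (50.6 to 58.4) of control germ cells. The shares were 6.02% (1.98 to 13.5) of Chd4 siRNA feeder cells and 4.05% (0.844 to 11.4) of control feeder cells. Germ and feeder shares lay far apart in each library. Without thinning, the shares in the Chd4 siRNA and control libraries were 62.7% and 68.2% of germ cells and 17.6% and 10.5% of feeder cells. Thinning left 673 germ and 83 feeder cells of the Chd4 siRNA library, with 50 and 2 shallower cells left out, and 644 germ and 74 feeder cells of the control library, with 51 and 2 left out.

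Cdkn1c (ENSMUSG00000037664, chr7:143458339-143461050, minus strand), maternally expressed, had 55.1 CPM (50.9 to 59.5) in Chd4 siRNA germ cells and 41.5 CPM (37.8 to 45.4) in control germ cells. Feeder cells held 2 UMIs (0.562 CPM) in the Chd4 siRNA library and 4 (1.28 CPM) in the control library. The log2 ratio of germ over feeder cells was 6.62 (4.76 to 9.66) in the Chd4 siRNA library and 5.02 (3.65 to 6.90) in the control library. Thinned shares with a UMI were 29.0% of Chd4 siRNA and 25.8% of control germ cells, against 0 of 83 Chd4 siRNA and 0 of 74 control feeder cells, which allow shares of up to 4.35% and 4.86% (Clopper-Pearson). Its paralog Cdkn1a, the p53-responsive inhibitor p21, had the opposite pattern, with 53.1 CPM in Chd4 siRNA and 50.5 CPM in control germ cells, against 869 and 724 CPM in the feeder cells of those libraries. Cdkn1b, which encodes p27, was sparse in both classes, between 3.05 and 3.57 CPM in germ cells and between 7.02 and 13.1 CPM in feeder cells.

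Meg3, a maternally expressed long noncoding RNA of the Dlk1-Dio3 locus (ENSMUSG00000021268, chr12:109541001-109571726, plus strand), had 28.7 CPM (25.7 to 31.9) in Chd4 siRNA germ cells and 27.9 CPM (24.9 to 31.2) in control germ cells. No UMI was found in Chd4 siRNA feeder cells, and 5 were found in control feeder cells. Against a floor of 3 counts over the class, Meg3 was 34.0-fold higher in germ cells of the Chd4 siRNA library. The exact interval there began at log2 4.78. In the control library Meg3 was 17.5-fold higher, log2 4.13 (2.89 to 5.76). Dlk1, a Notch-family ligand expressed from the other parental copy of the same locus, lay the other way, with 19.1 CPM in germ cells of each library, against 939 CPM in Chd4 siRNA feeder cells and 793 CPM in control feeder cells.

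Snrpn, paternally expressed, encodes the spliceosomal protein SmN (ENSMUSG00000102252, chr7:59982495-60140219, minus strand). It had 18.1 CPM (15.8 to 20.7) in Chd4 siRNA germ cells and 14.6 CPM (12.5 to 17.0) in control germ cells, and 1 UMI in the feeder cells of each library. The log2 ratio of germ over feeder cells was 6.01 (3.52 to 11.32) in the Chd4 siRNA library and 5.52 (3.02 to 10.83) in the control library, with wide intervals that rest on those single UMIs. Its exons share 216 bases on the same strand with Snurf and 589 with Gm38393. Snurf was at 0 UMIs in every class, and Gm38393 had 14 UMIs in Chd4 siRNA germ cells, 19 in control germ cells and 0 in feeder cells, so the Snrpn count is uncertain to the extent that reads were split among them. Snrpb, the paralog used in most cells, was between 903 and 927 CPM in germ cells and between 274 and 299 CPM in feeder cells. Ndn, a paternally expressed gene of the same chromosomal region that encodes the growth suppressor necdin, had 45.1 CPM in Chd4 siRNA and 40.6 CPM in control germ cells, against 1.69 and 2.24 CPM in the feeder cells of those libraries. Peg12, also of that region, lay the other way, with log2 ratios of −3.94 in the Chd4 siRNA library and −2.58 in the control library. Mkrn3 was at 1.23 and 0.72 in those libraries, and Magel2 had at most 3 UMIs in any class. These genes are named for their region, after their values were seen.

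**Figure D2:**
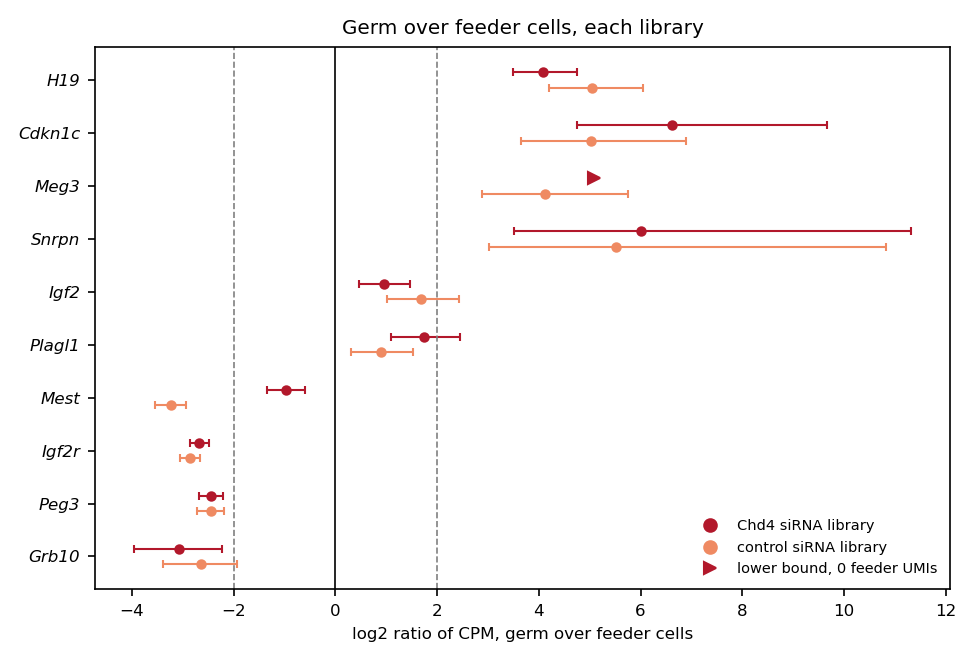
Log2 ratio of CPM, germ over feeder cells, in the Chd4 siRNA library (dark) and the control siRNA library (light), with exact 95% intervals for counting error; dashed lines mark 4-fold and the arrowhead is a lower bound. Both libraries give H19, Cdkn1c, Meg3 and Snrpn above the upper line and Igf2r, Peg3 and Grb10 below the lower one, and Mest passes it in the control library alone.

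Igf2r, maternally expressed in the mouse (ENSMUSG00000023830, chr17:12682406-12769664, minus strand), had 31.7 CPM (28.6 to 35.1) in Chd4 siRNA germ cells and 29.4 CPM (26.3 to 32.8) in control germ cells. Feeder cells had 203 CPM (188 to 218) in the Chd4 siRNA library and 214 CPM (198 to 231) in the control library. The log2 ratio of germ over feeder cells was −2.68 (−2.86 to −2.49) with Chd4 siRNA and −2.86 (−3.06 to −2.67) with control siRNA, and no germ interval reached a feeder one. After thinning, Igf2r was found in 23.0% of Chd4 siRNA and 22.4% of control germ cells, against 78.3% of Chd4 siRNA and 82.4% of control feeder cells. Without thinning it was found in 37.1% and 35.4% of those germ cells and in 98.8% and 98.7% of those feeder cells. Airn, the paternally expressed antisense RNA that silences Igf2r in mouse, had 9 UMIs in Chd4 siRNA and 8 in control germ cells, against 57 in Chd4 siRNA and 20 in control feeder cells.

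Peg3, a paternally expressed zinc finger gene (ENSMUSG00000002265, chr7:6703892-6730431, minus strand), had 21.0 CPM (18.5 to 23.8) in Chd4 siRNA germ cells and 17.3 CPM (15.0 to 19.9) in control germ cells, against 115 CPM (104 to 126) in Chd4 siRNA and 95.004 CPM (84.5 to 106) in control feeder cells. The log2 ratio of germ over feeder cells was −2.45 (−2.68 to −2.22) in the Chd4 siRNA library and −2.46 (−2.73 to −2.19) in the control library, intervals that overlap. Grb10 (ENSMUSG00000020176, chr11:11930508-12038683, minus strand), maternally expressed in most tissues, was sparse in germ cells, with 17 UMIs (1.44 CPM) in the Chd4 siRNA library and 27 (2.41 CPM) in the control library. Feeder cells held 43 UMIs (12.1 CPM) with Chd4 siRNA and 47 (15.0 CPM) with control siRNA. Its log2 ratio of germ over feeder cells was −3.07 (−3.97 to −2.23) in the Chd4 siRNA library and −2.64 (−3.38 to −1.93) in the control library. Grb7, a paralog that also binds receptor tyrosine kinases, lay the other way, between 16.9 and 17.7 CPM in germ cells, with 3 UMIs in Chd4 siRNA and 2 in control feeder cells. Grb14, a further paralog, had 7 and 12 UMIs in germ and feeder cells of the Chd4 siRNA library and 3 and 14 in those of the control library.

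Igf2, paternally expressed and the neighbour of H19 (ENSMUSG00000048583, chr7:142650766-142666816, minus strand), had 21.1 CPM (18.6 to 23.9) in Chd4 siRNA germ cells and 20.5 CPM (17.95 to 23.3) in control germ cells. Feeder cells had 10.95 CPM (7.79 to 15.0) in the Chd4 siRNA library and 6.40 CPM (3.91 to 9.88) in the control library. The log2 ratio of germ over feeder cells was 0.95 (0.46 to 1.47) with Chd4 siRNA and 1.68 (1.02 to 2.42) with control siRNA, and over thinned cells, a single random draw, it was −0.04 and 0.49 in those libraries. With a mean of per-cell CPM it was 0.70 with Chd4 siRNA and 0.97 with control siRNA, so neither its size nor, in the Chd4 siRNA library, its sign held under every setting. The cause was not tested. Plagl1, a paternally expressed zinc finger gene (ENSMUSG00000019817, chr10:13060504-13131694, plus strand), had 19.6 CPM in Chd4 siRNA and 16.6 CPM in control germ cells, against 5.90 CPM in Chd4 siRNA and 8.96 CPM in control feeder cells. Its log2 ratio was 1.73 (1.08 to 2.45) in the Chd4 siRNA library and 0.89 (0.31 to 1.52) in the control library, or 0.64 and 0.50 over thinned cells of those libraries. Its paralog Plag1 had 5.76 CPM in Chd4 siRNA and 6.07 CPM in control germ cells, against 4.21 and 1.92 CPM in the feeder cells of those libraries, and Plagl2 was between 21.1 and 23.4 CPM in germ cells and between 15.7 and 18.3 CPM in feeder cells.

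Mest, paternally expressed, encodes a protein of the alpha/beta hydrolase family (ENSMUSG00000051855, chr6:30723547-30748465, plus strand). It had 13.8 CPM (11.8 to 16.1) in Chd4 siRNA germ cells and 11.0 CPM (9.12 to 13.1) in control germ cells. Feeder cells had 27.2 CPM (22.1 to 33.2) in the Chd4 siRNA library and 103 CPM (92.4 to 115) in the control library. The log2 ratio of germ over feeder cells was −0.98 (−1.35 to −0.60) in the Chd4 siRNA library and −3.24 (−3.55 to −2.93) in the control library, intervals that lie apart. An intron of Mest holds miR-335, whose mature forms are shown with the seed in capitals (RefSeq, GRCm38.p6, chr6:30741314-30741336 and chr6:30741354-30741375, plus strand). They were not measured. An intron of Igf2 also holds miR-483, and exons of Meg3 hold miR-1906 and miR-770, whose sequences are not printed here.
miR-335-5p: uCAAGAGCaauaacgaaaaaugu
miR-335-3p: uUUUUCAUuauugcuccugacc

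Exons of Mest share 912 bases with Copg2, those of Meg3 1228 bases with Gm26906, those of Cdkn1c 625 bases with Gm44732 and those of Igf2 98 bases with Igf2os, all on the opposite strand. The sources used here do not say whether counting used strand, so reads of such pairs cannot be told apart. Copg2 had 396 UMIs in Chd4 siRNA and 341 in control germ cells, and 50 in Chd4 siRNA and 34 in control feeder cells. Igf2os had 20 UMIs in Chd4 siRNA and 16 in control germ cells, and 3 in Chd4 siRNA and 1 in control feeder cells. These genes are named for their place beside a member, after their values were seen. Gm26906 and Gm44732 had at most 1 UMI in any class. Igf2 also shares 3596 exonic bases on its own strand with Gm49394, which was not analysed here.

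RefSeq gives promoter windows, 250 bases before to 50 after a start site, for 8 of the 10 genes, with 18 windows in all; H19 and Cdkn1c are named only. The windows were searched for TGCCGC, the letters recognised by the imprint-keeping zinc finger protein ZFP57, and for its reverse complement GCGGCA, with no other motif searched. At least 1 window of Igf2, Meg3, Mest, Snrpn, Grb10 and Plagl1 held the letters, or 7 of 18 windows (2 of them overlapping windows of Mest), against 11.6% of 32851 mouse promoter windows of the same length; no window of Igf2r or Peg3 held them. A match is only a run of letters and says nothing of binding. Meg3 and Snrpn, detected in germ cells and almost absent from feeder cells, are shown first, and Grb10 and Peg3, with the opposite pattern, after them. The sequences run 5′ to 3′ on the strand of the gene, on GRCm38.p6, with the letters in capitals.
Meg3, chr12:109540746-109541045, plus strand: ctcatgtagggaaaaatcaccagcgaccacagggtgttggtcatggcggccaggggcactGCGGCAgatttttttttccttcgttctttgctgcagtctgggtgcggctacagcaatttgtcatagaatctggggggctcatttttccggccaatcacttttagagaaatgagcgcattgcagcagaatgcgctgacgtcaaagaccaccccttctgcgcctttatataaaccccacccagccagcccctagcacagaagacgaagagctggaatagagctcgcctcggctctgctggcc
Snrpn, chr7:60005150-60005449, minus strand: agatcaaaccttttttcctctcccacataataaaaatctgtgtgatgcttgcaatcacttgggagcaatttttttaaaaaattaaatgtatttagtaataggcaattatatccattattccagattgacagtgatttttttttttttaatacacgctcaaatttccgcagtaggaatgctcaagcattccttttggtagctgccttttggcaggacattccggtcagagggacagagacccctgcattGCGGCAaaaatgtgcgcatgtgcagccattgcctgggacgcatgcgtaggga
Grb10, chr11:12037371-12037670, minus strand: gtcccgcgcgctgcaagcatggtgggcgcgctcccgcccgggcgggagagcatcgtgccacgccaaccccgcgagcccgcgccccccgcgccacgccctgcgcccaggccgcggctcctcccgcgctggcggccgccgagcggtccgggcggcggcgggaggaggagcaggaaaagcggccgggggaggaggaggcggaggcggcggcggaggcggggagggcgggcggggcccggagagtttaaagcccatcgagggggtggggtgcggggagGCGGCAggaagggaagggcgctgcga
Peg3, chr7:6730370-6730669, minus strand: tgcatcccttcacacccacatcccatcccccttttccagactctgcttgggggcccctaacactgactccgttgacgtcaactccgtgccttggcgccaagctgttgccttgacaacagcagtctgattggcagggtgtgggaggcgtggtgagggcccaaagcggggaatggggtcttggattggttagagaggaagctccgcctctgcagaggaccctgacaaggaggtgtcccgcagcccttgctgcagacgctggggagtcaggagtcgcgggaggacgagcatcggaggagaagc

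The letters begin 190 bases before the start site in Meg3 (−190), just before it in Snrpn (−2) and after it in Grb10 (25). These printed windows differ in composition. The ratio of observed to expected CpG was 0.60 for Meg3, 0.57 for Snrpn, 0.97 for Grb10 and 0.46 for Peg3, against a median of 0.38 over all windows. The windows of these genes not printed, none of which held the letters, had 0.06 for Meg3, 0.13, 0.17 and 0.26 for Snrpn and 0.45 for Grb10. The letters thus stood in windows of genes higher in germ cells and of a gene lower there.

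RNA of one class can appear in the other as free RNA or doublets, so each level was set against the markers. In germ cells, fibroblast markers with at least 200 UMIs in feeder cells stood at 0.609% to 5.51% of their feeder level in the Chd4 siRNA library and at 0.899% to 4.84% in the control library. In feeder cells, germ markers stood at 0.535% to 7.70% of their germ level in the Chd4 siRNA library and at 1.06% to 10.1% in the control library. Measured against the highest of these shares, all 10 genes were above carry-over in germ cells of both libraries, and Igf2, Igf2r, Peg3, Mest, Grb10 and Plagl1 were above it in feeder cells. No share of all genes above carry-over is given here, so these counts do not set the 10 genes apart from others. H19, Cdkn1c, Meg3 and Snrpn in feeder cells stood at 5.88%, 1.02%, 0% and 1.55% of their germ level in the Chd4 siRNA library. In the control library they stood at 3.03%, 3.08%, 5.73% and 2.19%. All lay below the highest germ marker share of their library. The median germ marker stood at 2.41% with Chd4 siRNA and 3.49% with control siRNA. H19 with Chd4 siRNA and Meg3 with control siRNA lay above those medians, and the source of these UMIs was not tested. The margin in germ cells was narrow for Igf2r at 15.6% of its feeder level in the Chd4 siRNA library and 13.8% in the control library, Peg3 at 18.3% and 18.2%, and Grb10 at 11.9% and 16.02%. Mest stood at 50.7% of its feeder level in the Chd4 siRNA library and at 10.6% in the control library. Col5a1, a fibroblast collagen gene just short of 200 feeder UMIs, stood at 27.1% with Chd4 siRNA and 19.8% with control siRNA, above Igf2r, Peg3 and Grb10 in both libraries and above Mest in the control library, so transcription of these 4 genes in germ cells is not settled by this comparison.

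**Figure D3:**
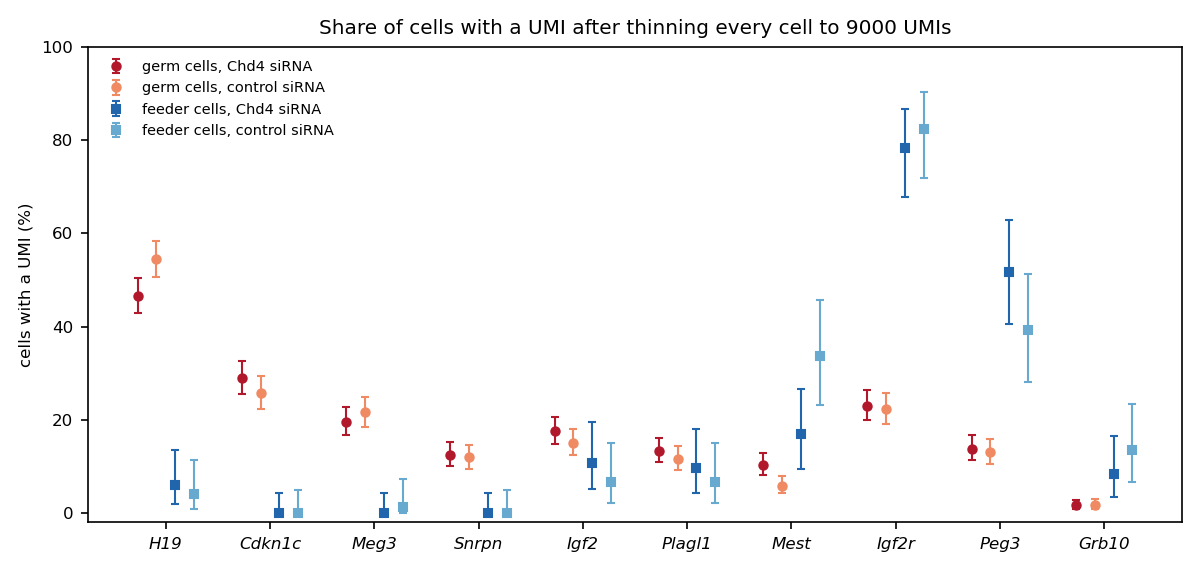
Share of cells with at least 1 UMI of each imprinted gene after thinning every cell to 9000 UMIs, in germ cells (circles) and feeder cells (squares) of the Chd4 siRNA and control siRNA libraries, with Clopper-Pearson 95% intervals. The intervals of germ and feeder cells lie apart in both libraries for 7 of the 10 genes, and Igf2r has the highest feeder shares at 78.3% and 82.4%. No share over all genes is given for that count, so it does not set the 10 genes apart from others.

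Other imprinted genes were found on either side of the class comparison. Of 26 further paternally expressed genes, 15 had enough UMIs, of which 6 were at least 4-fold higher in germ cells of both libraries, 3 were lower and 6 were between, beside 15.0% higher and 10.8% lower among all genes tested. The higher ones were Ndn, Sfmbt2, Slc38a4, Zdbf2, Nnat and Inpp5f, and the lower ones Dlk1, Airn and Peg12. Over both libraries, Sfmbt2, a Polycomb-group gene, was between 87.8 and 94.5 CPM in germ cells and between 5.90 and 9.28 CPM in feeder cells. Slc38a4, an amino acid transporter gene, was at 32.5 CPM in germ cells of each library and between 1.97 and 2.24 CPM in feeder cells. Zdbf2, between 9.83 and 12.7 CPM in germ cells, and Nnat, which encodes neuronatin, between 4.996 and 8.39 CPM, had at most 1 UMI in feeder cells. The median log2 ratio of this list was 1.23 in the Chd4 siRNA library and 0.96 in the control library.

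Of 25 further maternally expressed genes, 14 had enough UMIs, of which 2 were at least 4-fold higher in germ cells of both libraries (Ascl2 and Ppp1r9a), 3 were lower (Osbpl5, Cd81 and Atp10a) and 9 were between. With 15.0% and 10.8% of all genes called in those directions, the share of higher genes was near the background. Ascl2, a helix-loop-helix factor, was between 5.59 and 6.07 CPM in germ cells and had 0 UMIs in feeder cells. Ppp1r9a, which encodes the actin-binding protein neurabin, was between 9.37 and 10.1 CPM in germ cells, with at most 2 UMIs in feeder cells. Osbpl5, an oxysterol-binding protein gene, had 11 UMIs in Chd4 siRNA and 8 in control germ cells, against 107 in Chd4 siRNA and 84 in control feeder cells. The tetraspanin gene Cd81 had 978 UMIs in Chd4 siRNA and 751 in control germ cells, against 1390 in Chd4 siRNA and 1187 in control feeder cells, with log2 ratios of −2.24 and −2.50. Phlda2, beside Cdkn1c, was between 3.30 and 3.48 CPM in germ cells and had 0 UMIs in feeder cells. Gnas, the stimulatory G protein gene, was between 80.9 and 89.0 CPM in germ cells and between 307 and 323 CPM in feeder cells. The median log2 ratio of this list was 0.03 in the Chd4 siRNA library and −0.05 in the control library.

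Genes that act with Igf2 and Igf2r were called in both directions. Of 13 pathway genes tested, 3 were at least 4-fold higher in germ cells of both libraries, the binding protein genes Igfbp2, Igfbp3 and Igfbp5, and 5 were lower, Igfbp4, Igfbp7, Irs1, Igf2bp2 and Insr, beside 15.0% and 10.8% of all genes in those directions. Over both libraries Igfbp2 was between 84.5 and 102 CPM in germ cells and between 2.24 and 3.93 CPM in feeder cells. Igfbp5 was between 33.7 and 39.8 CPM in germ cells, with 2 UMIs in Chd4 siRNA and 3 in control feeder cells. Igfbp4, by contrast, was between 9.07 and 9.90 CPM in germ cells and between 493 and 505 CPM in feeder cells. Igfbp7 had at most 6 UMIs in germ cells and was between 33.9 and 36.0 CPM in feeder cells, and the adaptor gene Irs1 had at most 3 UMIs in germ cells and was between 11.0 and 11.5 CPM in feeder cells. Igf2bp2, an RNA-binding gene named for binding Igf2 mRNA, was between 4.37 and 4.92 CPM in germ cells and between 40.6 and 57.0 CPM in feeder cells. The list median was −0.94 in the Chd4 siRNA library and −0.46 in the control library.

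Genes that keep or read imprints were present in both classes for the most part. All 17 could be tested, 3 were at least 4-fold higher in germ cells of both libraries and 0 lower, with medians of 0.84 in the Chd4 siRNA library and 1.18 in the control library. The share of higher genes was near the 15.0% of all genes. Dppa3, which protects maternal imprints in the zygote, was between 22.6 and 31.2 CPM in germ cells, with at most 2 UMIs in feeder cells. The de novo methyltransferase gene Dnmt3b was between 35.1 and 37.5 CPM in germ cells and between 2.81 and 3.52 CPM in feeder cells. Ctcfl, the testis paralog of the insulator gene Ctcf, was between 3.98 and 6.42 CPM in germ cells, with at most 1 UMI in feeder cells. Uhrf1, which guides maintenance methylation, had log2 ratios of 2.104 in the Chd4 siRNA and 1.69 in the control library, and the chromatin gene Smchd1 had 1.87 and 1.56 there. Mbd3, a NuRD subunit gene, was between 99.7 and 109 CPM in germ cells and between 264 and 281 CPM in feeder cells.

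Under Chd4 siRNA, none of the imprinted genes with enough UMIs in germ cells passed a log2 ratio of 0.5 in either direction. Of the 9 genes with at least 50 UMIs over both libraries, 0 were above and 0 below, against 3.07% and 3.12% of 11170 genes (6.19% in either direction). Their median log2 ratio of Chd4 siRNA over control siRNA was 0.24, against 0.05 for all genes tested. With the interval rule (an interval that leaves out the all-gene median), 1 gene was above, Cdkn1c, and 1 below, H19, against 8.94% and 10.6% of all genes (19.6% in either direction).

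Cdkn1c had 650 UMIs in Chd4 siRNA germ cells and 465 in control germ cells, log2 0.41 (0.24 to 0.58). The 4 cells with the most Cdkn1c UMIs held 24, 21, 19 and 16 in the Chd4 siRNA library and 8, 7, 7 and 7 in the control library, and 6 Chd4 siRNA against 0 control germ cells held at least 10. Without the top cell of each library the ratio was 0.38, and with the stricter class rule of 20 times it was 0.25. Thinned shares of germ cells with a Cdkn1c UMI, 29.0% (25.6 to 32.6) with Chd4 siRNA and 25.8% (22.4 to 29.3) with control siRNA, overlapped in their intervals. H19 had 1296 UMIs in Chd4 siRNA and 1303 in control germ cells, log2 −0.08 (−0.19 to 0.03), an interval that includes 0. Its thinned shares were 46.7% with Chd4 siRNA and 54.5% with control siRNA, with intervals that barely parted in a single random draw. Cells of 1 library are not replicates of an siRNA, so that gap does not establish a difference between the siRNAs.

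**Figure D4:**
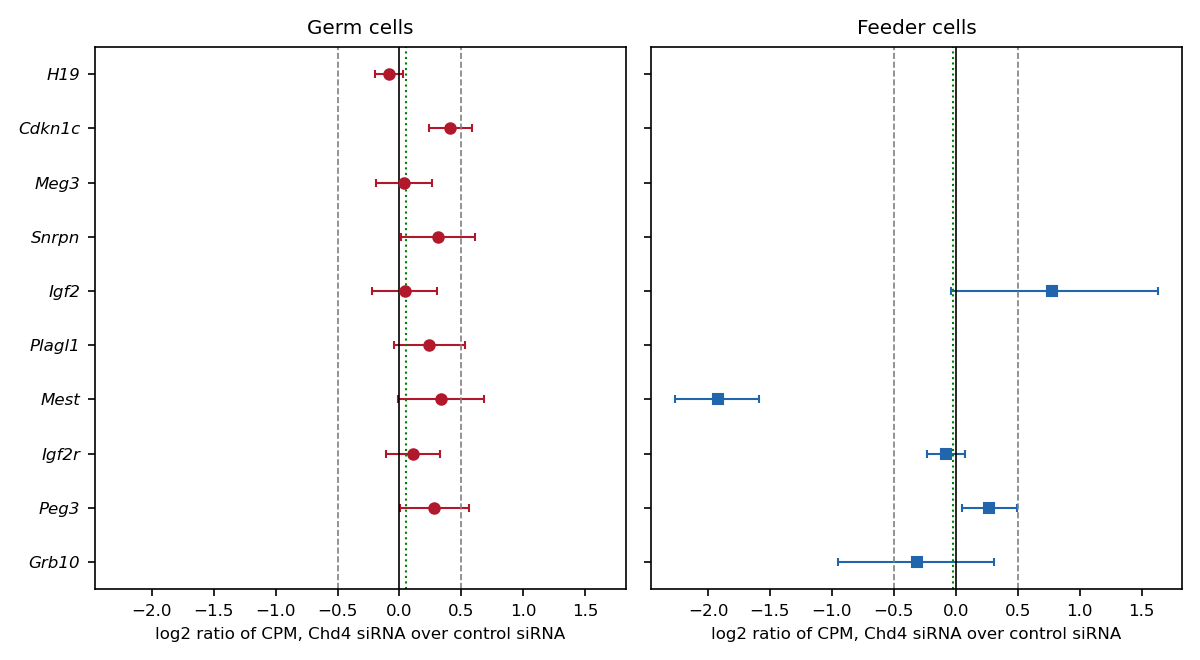
Log2 ratio of CPM, Chd4 siRNA over control siRNA, for the imprinted genes with at least 50 UMIs in germ cells (left) and feeder cells (right), with exact 95% intervals for counting error; dashed lines mark 0.5 on either side and the dotted line is the median of all genes. In germ cells all 9 points lie within the dashed lines, and in feeder cells Mest lies at −1.92 and Igf2 at 0.78.

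The other germ cell ratios were small. Mest stood at 0.33 (−0.01 to 0.68), Snrpn at 0.31 (0.01 to 0.61, and −0.02 under the stricter class rule), Peg3 at 0.28 (0.0037 to 0.56) and Plagl1 at 0.24 (−0.05 to 0.53). Igf2r was at 0.11 (−0.11 to 0.32), Igf2 at 0.04 (−0.22 to 0.31) and Meg3 at 0.04 (−0.19 to 0.26). Mest was the least stable of these, with 0.69 under the stricter class rule and 0.92 over thinned cells, where its share was 10.4% (8.20 to 12.96) of Chd4 siRNA germ cells and 5.90% (4.21 to 8.01) of control germ cells. Grb10, with 17 UMIs in Chd4 siRNA and 27 in control germ cells, was below the minimum. Summed fibroblast markers in germ cells were 78.8 CPM with Chd4 siRNA and 67.6 CPM with control siRNA. Of the 8 markers with enough UMIs there, 1 lay above the all-gene median by the interval rule and 0 below, beside 8.94% and 10.6% of all genes. The part of these markers in the ratios was not tested.

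In feeder cells Mest was the member that differed most. It had 97 UMIs in 85 Chd4 siRNA feeder cells and 323 in 76 control feeder cells, log2 −1.92 (−2.27 to −1.59). The 6 cells with the most Mest UMIs held 15, 10, 9, 6, 5 and 5 in the Chd4 siRNA library and 97, 38, 37, 30, 20 and 16 in the control library. The top 10% of cells by Mest UMIs, 8 in each library, held 59.8% of the Mest UMIs with Chd4 siRNA and 79.6% with control siRNA. Without the top cell of each library the ratio was −1.66. Mest was found in 41.2% of Chd4 siRNA feeder cells and 57.9% of control feeder cells, and after thinning in 16.9% (9.54 to 26.7) and 33.8% (23.2 to 45.7) of them, intervals that overlap. Of 18 fibroblast markers tested in the same cells, 7 lay above the all-gene median by the interval rule and 3 below, beside 11.6% and 11.5% of all genes. Past 0.5, 0 of the 18 were higher and 3 lower, beside 4.88% and 8.83% of all genes. The 21 fibroblast markers summed to 3820 CPM with Chd4 siRNA and 3521 CPM with control siRNA. Of 3 Sertoli markers tested, Rhox5 and Clu lay above the all-gene median by the interval rule and Sox9 did not. Whether the mix of feeder cells played a part was not tested. A difference in how many strongly expressing feeder cells entered each library and a lower level per cell cannot be told apart with 1 library each.

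**Figure D5:**
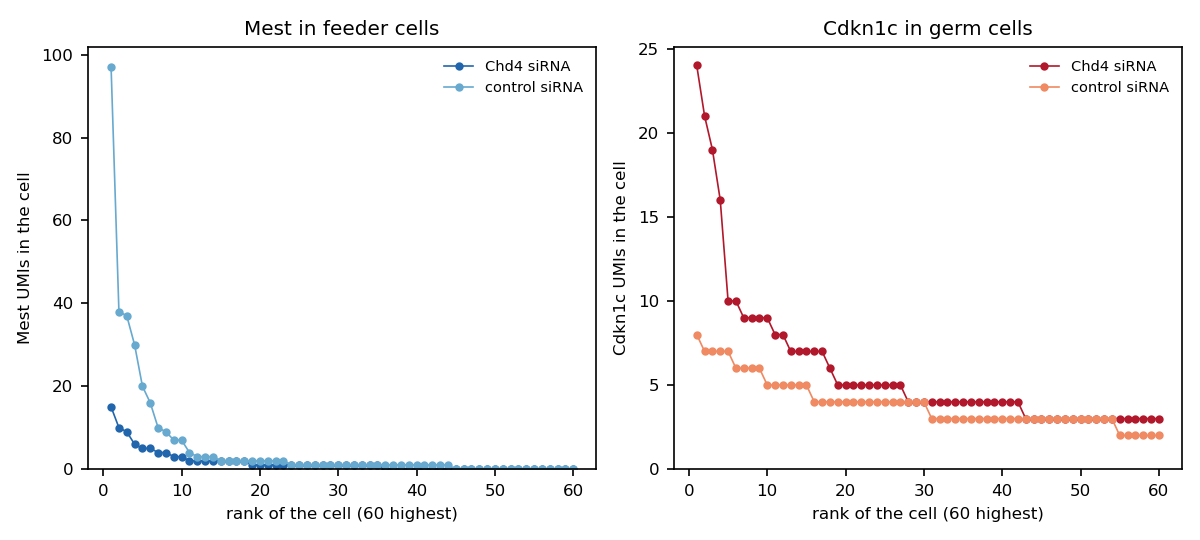
UMIs per cell in the 60 cells with the most, by rank, for Mest in feeder cells (left) and Cdkn1c in germ cells (right), in the Chd4 siRNA and control siRNA libraries. The highest Mest cells hold 15 UMIs with Chd4 siRNA and 97 with control siRNA, and the highest Cdkn1c cells hold 24 and 8.

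Of the 5 imprinted genes with enough UMIs in feeder cells, 1 was past 0.5 upward, Igf2, and 1 downward, Mest, against 4.88% and 8.83% of 8301 genes (13.7% in either direction). The median was −0.08, against −0.02 for all genes tested. Igf2 had 39 UMIs in Chd4 siRNA feeder cells and 20 in control feeder cells, log2 0.78 (−0.04 to 1.63), an interval that includes 0. These UMIs lay in 14 of 85 Chd4 siRNA and 10 of 76 control feeder cells. The 8 cells with the most held 82.1% of them with Chd4 siRNA and 90% with control siRNA. The counting interval does not cover such clumping. As a mean of per-cell CPM the Igf2 ratio was 0.29. By the interval rule Peg3 was above, at 0.27 (0.05 to 0.49), and Mest below, against 11.6% and 11.5% of all genes (23.1% in either direction). Igf2r stood at −0.08 (−0.23 to 0.08) and Grb10 at −0.32 (−0.95 to 0.31). H19 had 23 UMIs with Chd4 siRNA and 11 with control siRNA, and Plagl1 21 and 28. These, and Cdkn1c, Meg3 and Snrpn with at most 5 UMIs each, were too few to compare at this depth.

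Of the wider lists in germ cells, few genes passed 0.5 with Chd4 siRNA, beside 6.19% of all genes. Among them, 1 of 12 further paternally expressed genes passed 0.5, Nnat, with 99 UMIs in Chd4 siRNA and 56 in control germ cells and log2 0.75 (0.26 to 1.25), and 0 of 12 maternally expressed ones did. The list medians were 0.06 for the paternally and 0.10 for the maternally expressed genes. Zdbf2 stood at −0.37 (−0.73 to −0.0014), Cd81 at 0.31 (0.17 to 0.45) and Gnas at −0.14 (−0.27 to −0.0093). In the IGF pathway 1 of 11 genes passed, Igfbp3 at 0.73 (0.21 to 1.28), with Igfbp2 at 0.27 (0.14 to 0.39) and Igfbp5 at 0.24 (0.04 to 0.44), and the list median was 0.10. Among 15 genes that keep imprints, 1 passed downward, Ctcfl with 47 UMIs in Chd4 siRNA and 72 in control germ cells, at −0.69 (−1.25 to −0.14), and the median was 0.10. By the interval rule, 3 of the 15 lay above the all-gene median and 4 below, 7 in all, beside 19.6% of all genes in either direction. Those below were Ctcfl, Trim28, the corepressor gene of ZFP57, at −0.15 (−0.27 to −0.04), Ctcf at −0.20 (−0.36 to −0.03) and Uhrf1 at −0.07 (−0.18 to 0.05). Those above were Dppa3, Dnmt3a and Arid4b. Dppa3 was at 0.47 (0.23 to 0.70), the methyltransferase gene Dnmt3a at 0.27 (0.09 to 0.45) and Arid4b at 0.26 (0.13 to 0.39). Of the 6 paralogs tested, 0 passed 0.5, with a median of 0.05.

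In feeder cells, where 4.88% of all genes passed 0.5 upward and 8.83% downward (13.7% in all), Airn was higher with Chd4 siRNA, 57 against 20 UMIs and log2 1.32 (0.57 to 2.14), while Igf2r stood at −0.08. Of 9 further paternally expressed genes tested there, Airn was 1 past 0.5 upward and 2 were past it downward, Nespas at −0.74 (−1.49 to −0.0097) and Sfmbt2 at −0.65 (−1.54 to 0.21), with a median of 0.21. Dlk1 stood at 0.24 (0.17 to 0.32). Of 10 maternally expressed genes 0 passed, with a median of −0.01, and Tssc4 stood at −0.41 (−0.77 to −0.07) and Commd1 at −0.26 (−0.49 to −0.03). In the IGF pathway 2 of 11 were past 0.5 upward, Igf1 and Igfbp6, and 1 downward, Insr at −0.72 (−1.34 to −0.12), with a median of 0.14. Igf1, the other IGF ligand, had 45 UMIs with Chd4 siRNA and 12 with control siRNA, log2 1.72 (0.78 to 2.77), and Igfbp6 was at 0.58 (0.32 to 0.85). The receptor gene Igf1r was at −0.43 (−0.66 to −0.21) and Igf2bp2 at 0.49 (0.16 to 0.82). Dnmt3a, at 0.63 (0.15 to 1.12), was the 1 of 12 imprint-keeping genes past 0.5, with a median of −0.09, and Dnmt1 stood at −0.45 (−0.81 to −0.09), Uhrf1 at −0.48 (−0.90 to −0.06) and Mta1 at −0.32 (−0.62 to −0.019). Of 4 paralogs, Cdkn1b passed downward at −0.90 (−1.68 to −0.15), and Cdkn1a stood at 0.26 (0.18 to 0.34).

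Within a class the genes were unevenly spread over cells. The 10% of germ cells with the most UMIs of a gene held 42.7% of H19 UMIs in the Chd4 siRNA library and 38.9% in the control library, and 59.7% and 54.6% of Cdkn1c UMIs. The top 10% of feeder cells held 21.2% of Igf2r UMIs in the Chd4 siRNA library and 21.4% in the control library, and 38.2% and 38.0% of Peg3 UMIs. These shares also depend on how many UMIs a gene has, so they give no order of evenness between genes. Between pairs of the 10 genes, Spearman correlations over single germ cells ran from −0.07 to 0.16 in the Chd4 siRNA library and from −0.08 to 0.16 in the control library, with H19 and Igf2 highest in both. Over feeder cells they ran from −0.25 to 0.29 in the Chd4 siRNA library and from −0.30 to 0.31 in the control library. Cells of a library share capture and depth, and such weak values are given as a description.

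For the genes with a UMI in at least 50% of the 76 control feeder cells, Igf2r, Peg3 and Mest, the 3 genes most like each were ranked by Spearman correlation among 5623 genes. For Igf2r these were Msn at 0.47, Myh9 at 0.46 and Col16a1 at 0.43. For Peg3 they were 2610507B11Rik at 0.50, Ddx27 at 0.42 and E2f3 at 0.41, and for Mest they were Cxcl12 at 0.49, Casc4 at 0.46 and Rps25 at 0.44. Over the 85 Chd4 siRNA feeder cells the same 9 pairs ran from −0.11 (E2f3) to 0.26 (Cxcl12). The partners were picked by their values in the control library, so the gap between the libraries shows nothing by itself. In germ cells H19 was the gene found in at least 50% of cells of the control library, and among 3106 genes the closest were Chd4 at 0.26, Med13l at 0.24 and Skp1a at 0.22, with 0.14, 0.12 and 0.14 in the Chd4 siRNA library. These are weak values in sparse counts.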

How the data were processed

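Single-cell RNA was measured in 2 libraries, 1 per siRNA. The matrices the authors deposited give UMI counts, not normalized, as whole numbers. Cell Ranger 2.1.0, Seurat and mm10 are named in the submitters' processing notes, without roles, and how the authors called cells and whether counting used strand are not given in the sources used here. Of 27998 rows, 26893 had a gene name; the other 1105 held 12.6% of UMIs in the Chd4 siRNA library and 12.1% in the control library and stayed out of all totals. Each matrix as held here ends within its last cell, which was left out, leaving 860 and 816 complete cells. Cells under 1000 UMIs were removed (2 and 0).

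UMIs were summed per class and library and divided by the class total in named genes (CPM), with exact Poisson 95% intervals. Ratios carry exact conditional binomial intervals and shares Clopper-Pearson intervals. With 1 pooled library per siRNA no test across replicates was possible, and PCR and pooling error are not covered. Germ over feeder ratios needed 20 UMIs over both classes in each library and were called at 4-fold in both; siRNA ratios needed 50 UMIs over both libraries and were called at 0.5 on the log2 scale. A class with 0 UMIs was set to a floor of 3 counts. Doublets were kept; Scrublet (scanpy 1.11.5, expected 1%) called 11 and 8 cells, all germ cells. The ratio calculation was tested on simulated counts. Thinning was 1 random draw. TMM (edgeR 4.0.16) and DESeq2 1.42.0 size factors served only as other scalings of these counts, in R 4.3.3; the rest used Python 3.11.15, numpy 2.4.6, pandas 2.3.3 and scipy 1.17.1. Positions follow the GENCODE annotation of GRCm38 (mm10), and sequences RefSeq on GRCm38.p6. All 10 genes are named; from each further list up to 6 genes are named for germ over feeder and up to 4 for the siRNA ratio, by the interval bound nearest to 0, with all paralogs and, where a count was 5 or fewer or 6, the genes counted, chosen after their values were seen. The members and lists were chosen with earlier results of these data known. Zfp264, Peg13, Rian, Tdrd1, Pdgfrb, Cyp17a1, Csf1r and Acta2 were not analysed here.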

Additional observations from a re-analysis of the deposited data

Results flagged for a closer look

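Mest had a log2 ratio of Chd4 siRNA over control siRNA of 0.33 in germ cells and −1.92 in feeder cells. It stands out because the 2 classes point in opposite directions with counting intervals that do not overlap, −0.01 to 0.68 in germ cells and −2.27 to −1.59 in feeder cells. The germ cell interval includes 0. The difference between the classes was not tested, since each siRNA is 1 library.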

How the results depend on the processing

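No paired analysis was possible because each siRNA is 1 library. No call changed its direction. The 7 genes past 4-fold between the classes became 5 over thinned cells and 5 with a minimum of 200 UMIs. The count was 7 under every other setting run. Over thinned cells Snrpn had 0 feeder UMIs. Its log2 ratios against a floor of 3 counts were 2.18 in the Chd4 siRNA and 1.74 in the control library. The count above carry-over in germ cells was 9 with a class ratio of 20 and 10 otherwise. For Chd4 siRNA in germ cells, 0 genes past 0.5 became 1 with a class ratio of 20 (Mest, 0.69), 1 over thinned cells (Mest, 0.92) and 1 with a minimum of 1 UMI (Grb10, −0.74). In feeder cells the 2 genes became 1 over thinned cells, 1 by mean per-cell CPM and 1 without the top cell. That last setting was chosen after seeing the data. The 2 genes became 1 with a minimum of 200 UMIs and 6 with a minimum of 1 UMI. Without the top cell, and with the minimum of 200 UMIs, Igf2 had too few UMIs to be compared. Mest ran from −2.43 to −1.66. The 7 genes whose shares lay apart became 4 when 2 UMIs were asked for and 8 unthinned, with no all-gene share for comparison. The causes of the other changes were not tested. Of the single-gene values, 20 of 220 between the classes, 5 of 110 in germ cells and 1 of 105 in feeder cells moved beyond their counting interval. Feeder sums rest on under 100 cells per library, which limits every feeder value.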
